A study of Rattus norvegicus with 32 samples.

Results

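The neurofilament subunit genes Nefl, Nefm and Nefh were followed in hippocampal RNA of R237H rats, a model of Alexander disease, and of their wild-type littermates. Members were chosen by name: the 3 genes were taken by their Ensembl identifiers (ENSRNOG00000013658 for Nefl, ENSRNOG00000013916 for Nefm and ENSRNOG00000008716 for Nefh) out of 23822 genes, and all 3 passed the filter on low counts in every comparison. Identifiers were paired with names through the study's supplementary tables, which favour genes that changed. The 3 genes were thus not chosen free of the genotype result, and shares of all genes called are given beside them as background only. R237H rats (Gfap+/R237H) carry 1 Gfap allele with a missense mutation on the Crl:CD(SD) background, and WT rats (Gfap+/+) are their littermates. Rats of both sexes were killed at P21 or at P56. There were 4 R237H and 4 WT rats in each group, except that the P21 females were 5 R237H and 3 WT rats. The effect of age cannot be told apart from that of the collection a rat belonged to, so genotypes were compared within an age. Each rat is a separate animal with its own library.

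Neurofilaments are the intermediate filaments of the neuronal cytoskeleton. Nefl, the light subunit, forms the filament core, and Nefm and Nefh, the medium and heavy subunits, assemble onto it and carry long, phosphorylated tails that project from the filament and space neighbouring filaments apart. The filaments fill large and myelinated axons, move along them by slow transport and set axon calibre. In the brain the subunits are made by neurons, the heavy subunit most in large projection neurons and in some interneurons, and filament protein released from damaged axons is measured in blood and cerebrospinal fluid as a marker of axonal injury.

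Totals of expected counts per library ran from 21580397 to 55544871. The 2 shallowest libraries were of R237H males, R1781H at P21 with the lowest total and s70-B at P56 with 25420919, and the others had at least 38503686. The subunits were deeply counted even there: the lowest value in any rat was 1782 counts, for Nefh in s70-B. Gfap, the mutated gene, was higher in R237H rats in all 4 comparisons, with log2 fold changes from 2.53 to 2.89. Of the hippocampal pyramidal cell markers, 3 of 8 had a symbol (Neurod6, Grik4 and Wfs1), their summed level was 195 to 492 TPM over the rats, and none was at 0 in any group. Choroid plexus markers stood above 500 TPM in sum in 5 libraries (s66-B and s70-B of males at P56, s70-C of females at P56, R1781C of males at P21 and R1797C of females at P21) and were at most 129 TPM in the others. Leaving out any of these 5 libraries, or R1781H, moved none of the genotype calls below across the threshold.

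Nefl was the most abundant subunit in every rat, Nefm the next and Nefh the least. On the TPM scale, which corrects for transcript length and so allows levels to be compared between genes, the mean level in WT males at P21 was 415 ± 15.98 (SD, n = 4) for Nefl, 192 ± 6.27 (SD, n = 4) for Nefm and 60.0 ± 3.03 (SD, n = 4) for Nefh. In these rats Nefl ranked 186 and Nefm 551 from the highest of 18034 genes with a mean TPM above 0, whereas Nefh ranked 2183. Nefl made up 57.6% to 67.4% of the summed TPM of the 3 subunits over the 32 rats, Nefm 23.3% to 33.2% and Nefh 6.85% to 12.3%.

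By mean TPM the R237H groups at P56 were the lowest for each subunit, and the highest group was WT. For Nefl the order ran from WT females at P21 (439 ± 20.6, SD, n = 3) through WT males at P21, WT males at P56 (354 ± 45.1, SD, n = 4), WT females at P56 (348 ± 36.5, SD, n = 4), R237H females at P21 (340 ± 31.3, SD, n = 5) and R237H males at P21 (336 ± 31.6, SD, n = 4) to R237H females at P56 (242 ± 49.3, SD, n = 4) and R237H males at P56 (230 ± 22.8, SD, n = 4). Every pair of neighbours in this order overlapped in range. For Nefm, WT rats at P21 were highest (219 ± 29.3 in females, SD, n = 3), R237H rats at P56 were lowest (112 ± 9.47 in males, SD, n = 4), and the other 4 groups lay together at means of 158 to 160 TPM (WT and R237H rats among them). Ranges of neighbours in the Nefm order were separate between WT males at P21 and WT females at P56 and between R237H males at P21 and R237H females at P56, and overlapped elsewhere. For Nefh, 3 of the 4 WT groups lay together at 59.4 to 61.3 TPM, WT females at P56 followed at 50.4 ± 4.56 (SD, n = 4), and the R237H groups lay between 38.1 and 46.4 TPM, with overlap between all neighbours.

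**Figure D1:**
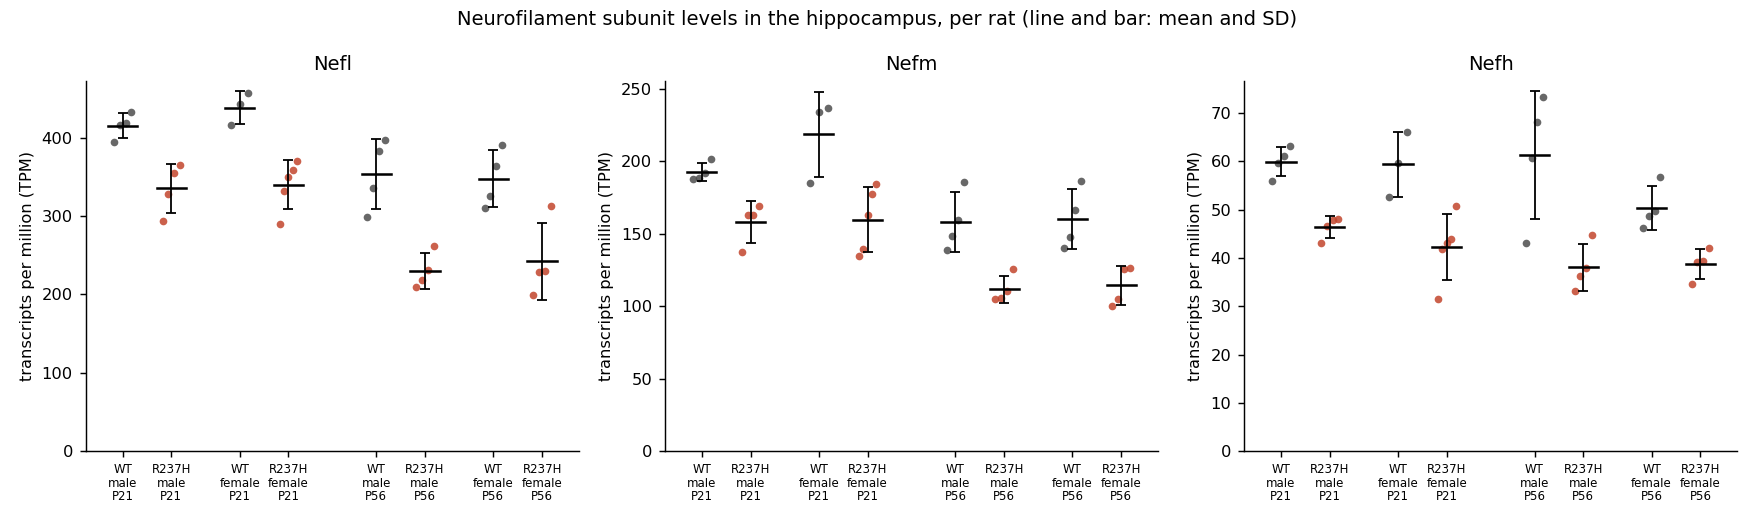
Levels of Nefl, Nefm and Nefh (vertical axes, TPM, starting at 0) in each of the 32 rats, by genotype, sex and age. Points are rats, and the black line and bar are the mean and SD of a group. For Nefl, R237H rats lie at 199 to 313 TPM at P56 and WT rats at 299 to 397 TPM.

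At P56 all 3 subunits were lower in R237H rats of both sexes. Whether fewer neurons or less RNA per neuron lies behind a lower level cannot be told apart in whole tissue. The test was edgeR's quasi-likelihood F-test on rounded counts scaled by TMM factors (trimmed mean of M-values, which centre the bulk of genes), with a Benjamini-Hochberg false discovery rate (FDR) over all genes tested and a threshold of 0.01.

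In males at P56, Nefl, the core subunit, was measured at 299, 336, 383 and 397 TPM in the WT rats and at 210, 218, 231 and 262 TPM in the R237H rats. The groups did not overlap. Nefl had a log2 fold change of -1.02 (SE 0.12, FDR = 1.34e-04), so its normalized count was 50.7% lower. Nefm, the medium side-arm subunit, was at 138, 148, 160 and 186 TPM in WT males and at 105, 106, 111 and 125 TPM in R237H males. It too was separated between the genotypes, with a log2 fold change of -0.91 (SE 0.14, FDR = 7.12e-04). Nefh, the heavy side-arm subunit, was at 43.2, 60.7, 68.2 and 73.4 TPM in WT males and at 33.1, 36.3, 37.9 and 44.9 TPM in R237H males. The lowest WT male, s69-A, lay inside the R237H range of Nefh on the TPM scale, but not after TMM scaling. The log2 fold change of Nefh was -1.07 (SE 0.13, FDR = 1.27e-04), and 3.14% of genes tested were more negative.

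All 3 subunits passed in males at P56, where 11.1% of the 15097 genes tested were called lower in R237H rats. On normalized counts every R237H male was below every WT male for each subunit, as was the case for 17.8% of all genes tested.

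In females at P56, Nefl was at 310, 326, 364 and 391 TPM in the WT rats and at 199, 228, 229 and 313 TPM in the R237H rats. The highest R237H female, s69-C, was just above the lowest WT female, s64-B, and the other 3 R237H rats lay well below. The log2 fold change of Nefl was -0.82 (SE 0.13, FDR = 7.13e-04). Nefm was at 140, 148, 166 and 186 TPM in WT females and at 100, 105, 126 and 126 TPM in R237H females. Its log2 fold change was -0.78 (SE 0.11, FDR = 3.17e-04), and the groups did not overlap. Nefh was at 46.2, 48.7, 49.8 and 56.9 TPM in WT females and at 34.5, 39.2, 39.4 and 42.1 TPM in R237H females. Its log2 fold change was -0.68 (SE 0.09, FDR = 2.34e-04), again without overlap. All 3 subunits passed, against 11.1% of 15033 genes called lower, and all 3 had every R237H female below every WT female on normalized counts, against 18.8% of genes. Some rats share a number in their sample titles. With that number as a block, Nefl kept its call (-0.68, FDR = 0.00886). Nefm (-0.56, FDR = 0.0215) and Nefh (-0.57, FDR = 0.0177) lost theirs, in a fit that rests on 2 pairs of rats.

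These sizes depend on the scale at P56. On log2(TPM + 0.1), where every library sums to the same total, the median of all genes tested was itself 0.40 higher in R237H males and 0.26 higher in R237H females, and the subunit differences were smaller: -0.62 for Nefl, -0.50 for Nefm and -0.67 for Nefh in males, and -0.54, -0.49 and -0.38 in females. Relative to that median they were -1.02, -0.90 and -1.07 in males and -0.80, -0.75 and -0.64 in females, close to the values from TMM scaling. By limma on log2(TPM + 0.1) without that centring, Nefl in males passed the threshold (FDR = 0.00481) and the other 5 results did not, with FDR values from 0.0111 to 0.0205.

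Markers of other cell types moved with genotype at P56. All 11 microglia markers had a symbol, 10 of them rose in R237H rats of each sex, and their summed level went from 219 to 409 TPM over the WT rats to 2023 to 3423 TPM over the R237H rats. Of the oligodendrocyte myelin markers, 5 of 12 had a symbol, of which 4 rose in males and 2 in females, and their sum was 1086 to 2400 TPM in WT and 2539 to 3820 TPM in R237H rats. The summed erythrocyte genes were 342 to 1763 TPM in WT and 72.3 to 143 TPM in R237H rats. Markers of neighbouring regions moved too: of the thalamus and habenula markers 2 of 8 had a symbol (Prkcd and Rora), both rose in all 4 comparisons, and their sum at P56 was 4.38 to 7.64 TPM in WT and 25.6 to 32.7 TPM in R237H rats. The single neocortex marker of 5 with a symbol, Scnn1a, rose at P56 by log2 fold changes of 2.60 in males and 2.89 in females, and its mean in males was 0.223 ± 0.0591 TPM (SD, n = 4) for WT and 1.82 ± 0.225 TPM (SD, n = 4) for R237H. The part of these shifts in the subunit result was not tested. Prkcd, Rora and Scnn1a had a symbol through tables that favour changed genes, so they do not stand for their lists. Whether neighbouring tissue entered the dissections was not tested either.

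At P21 the subunits were lower in R237H rats of both sexes by smaller amounts, and within a sex 1 of the 6 differences passed the threshold. In males at P21, Nefl was at 394, 416, 418 and 433 TPM in the WT rats and at 294, 329, 355 and 365 TPM in the R237H rats. The groups did not overlap, but with a log2 fold change of -0.30 (SE 0.08) Nefl just missed the threshold (FDR = 0.0101). Nefm was at 188, 189, 192 and 202 TPM in WT males and at 137, 163, 163 and 169 TPM in R237H males. Its log2 fold change of -0.28 (SE 0.07, FDR = 0.0129) also missed it. Nefh was at 55.96, 59.7, 61.1 and 63.2 TPM in WT males and at 43.1, 46.6, 47.8 and 48.1 TPM in R237H males, and it fell, with a log2 fold change of -0.37 (SE 0.06, FDR = 9.94e-04).

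Of the subunits, 1 of 3 was thus called lower in males at P21, where 4.82% of 14953 genes were, and all 3 had every R237H male below every WT male, as had 12.9% of genes. Without R1781E, the R237H male with the lowest levels, Nefl passed at -0.23 (FDR = 0.00945) and Nefm at -0.21 (FDR = 0.00894), and without R1781A Nefl passed at -0.37 (FDR = 0.00276).

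In females at P21, Nefl was at 416, 443 and 457 TPM in the WT rats and at 290, 332, 350, 358 and 370 TPM in the R237H rats. Its log2 fold change was -0.31 (SE 0.08, FDR = 0.0305). Nefm was at 185, 234 and 236.85 TPM in WT females and at 135, 139, 163, 178 and 184 TPM in R237H females, so the highest R237H rat, R1797D, came within 1 TPM of the lowest WT rat, R1790A. Its log2 fold change was -0.39 (SE 0.13, FDR = 0.0876). Nefh was at 52.5, 59.7 and 66.1 TPM in WT females and at 31.5, 41.9, 43.1, 43.9 and 50.7 TPM in R237H females. Its log2 fold change was -0.44 (SE 0.10, FDR = 0.0164).

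By edgeR's quasi-likelihood test 0 of 3 subunits passed in females at P21, where 0.753% of 15149 genes were called lower. All 3 had an unadjusted p under 0.05 in that test, DESeq2 called Nefl (FDR = 0.00381) and Nefh (FDR = 0.00120), and the likelihood-ratio test called Nefh (FDR = 0.00277). Nefl passed without R1797D, at -0.35 (FDR = 0.00800). On normalized counts Nefl and Nefh had every R237H female below every WT female, and Nefm 4 of 5, against 6.88% of genes. At P21 the microglia markers had a summed level of 290 to 359 TPM in WT and 788 to 1425 TPM in R237H rats, and the myelin markers 2982 to 4374 TPM in WT and 1958 to 3424 TPM in R237H rats. Their part in the subunit differences was not tested.

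With the 16 rats of P21 in one fit and sex as a term, all 3 subunits passed: the log2 fold change was -0.30 (SE 0.05, FDR = 2.48e-04) for Nefl, -0.33 (SE 0.08, FDR = 0.00308) for Nefm and -0.40 (SE 0.06, FDR = 3.46e-05) for Nefh. In that fit 7.03% of 15173 genes were called lower. The same fit at P56 gave -0.94 (SE 0.10, FDR = 1.85e-07), -0.86 (SE 0.09, FDR = 2.43e-07) and -0.89 (SE 0.10, FDR = 4.56e-07), where 23.7% of 15190 genes were called lower.

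**Figure D2:**
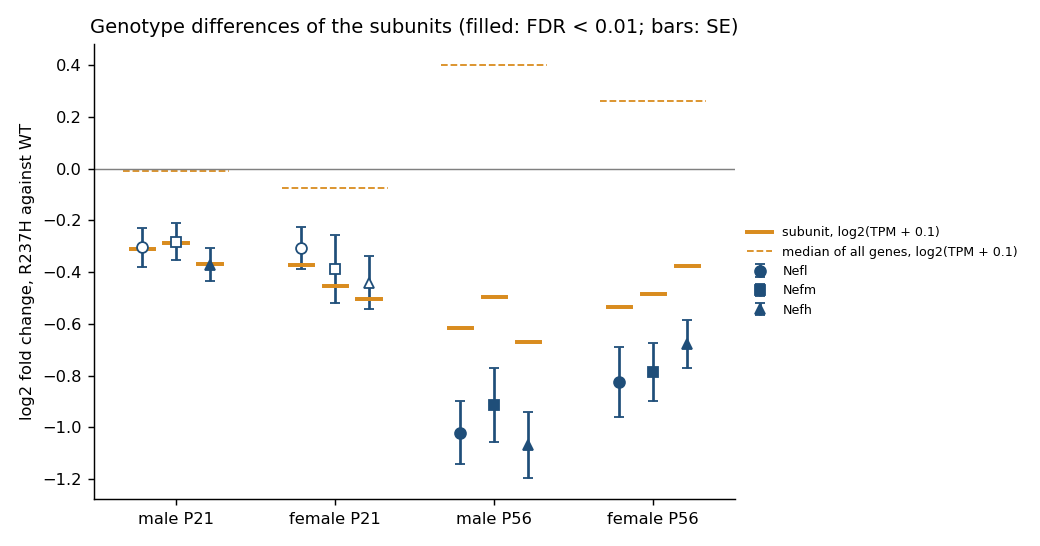
Log2 fold change of R237H against WT (vertical axis) for Nefl (circle), Nefm (square) and Nefh (triangle) in the 4 comparisons. Blue symbols are edgeR estimates with SE bars, filled where the FDR was under 0.01, and orange lines are the differences on log2(TPM + 0.1), with the median of all genes on that scale dashed. All 12 differences lie below 0 on both scales, and at P56 the TPM median of all genes lies above it.

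The genotype difference was larger at P56 than at P21 for 2 of the 3 subunits in males, by a test of the age by genotype interaction in the 16 males. The interaction was -0.74 (SE 0.15, FDR = 0.00280) for Nefl and -0.72 (SE 0.15, FDR = 0.00359) for Nefh on the log2 scale, and -0.65 (SE 0.17, FDR = 0.0113) for Nefm, which missed the threshold. In males 4.31% of genes tested were more negative at P56 by this test. In females 0.658% of genes passed, and none of the 3 subunits did: the estimates were -0.51 (SE 0.16, FDR = 0.0658) for Nefl, -0.39 (SE 0.19, FDR = 0.230) for Nefm and -0.23 (SE 0.14, FDR = 0.369) for Nefh, of which Nefl alone had an unadjusted p under 0.05. The likelihood-ratio test and limma on log2(TPM + 0.1) also called none of them in females.

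The interaction in males depended on the scale. On log2(TPM + 0.1) limma gave -0.30 for Nefl (FDR = 0.127), -0.21 for Nefm (FDR = 0.271) and -0.30 for Nefh (FDR = 0.242), with a median of all genes of 0.41. Relative to that median the terms were -0.71, -0.62 and -0.71, which were not tested. In females the sign of Nefh turned on that scale, to 0.13 (FDR = 0.678), where the median of all genes was 0.32. Relative to that median Nefh was at -0.19. The call of Nefh in males was lost without R1781A (-0.65, FDR = 0.0103) and without R1781H (-0.67, FDR = 0.0107), and Nefm passed without s69-A (-0.50, FDR = 0.00735), without s65-B (-0.74, FDR = 0.00485), without s70-A (-0.71, FDR = 0.00895) and without R1781E (-0.73, FDR = 0.00611).

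In WT rats the subunits were not called different between P21 and P56 in either sex. The log2 fold change of P56 against P21 in WT males was -0.02 (SE 0.11, FDR = 0.903) for Nefl, -0.07 (SE 0.12, FDR = 0.727) for Nefm and 0.22 (SE 0.11, FDR = 0.163) for Nefh. In WT females it was -0.19 (SE 0.12, FDR = 0.417) for Nefl, -0.30 (SE 0.14, FDR = 0.224) for Nefm and -0.09 (SE 0.11, FDR = 0.708) for Nefh. Of these 6 results, Nefm in females alone had an unadjusted p under 0.05, and neither the likelihood-ratio test nor limma on log2(TPM + 0.1) called any. Between the ages 8.43% of genes were called different in WT males and 2.59% in WT females. On the TPM scale the medians of all genes were -0.16 in WT males and -0.12 in WT females for P56 against P21, and the differences were -0.24 and -0.34 for Nefl, -0.29 and -0.45 for Nefm, and 0.01 and -0.24 for Nefh.

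A difference between the sexes in the genotype effect was not detected. At P21 all males had the same number in their sample titles and no female had it. Sex could therefore not be told apart from that number at P21. The sex by genotype term (female minus male) for Nefl was -0.01 (SE 0.12) at P21 and 0.23 (SE 0.19) at P56, and for Nefm it was -0.11 (SE 0.17) and 0.16 (SE 0.18). For Nefh it was -0.07 (SE 0.13) at P21 and 0.43 (SE 0.17) at P56, with an unadjusted p of 0.0208 in edgeR and an FDR of 0.999. All 6 FDR values were at least 0.999, this Nefh term alone was under 0.05 without adjustment, and of all genes tested 0% passed at P21 and 0% at P56 in edgeR. The likelihood-ratio test and limma on log2(TPM + 0.1) called none of the 6 either.

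The proportions of the subunits were then compared, since filaments are built from all 3 and a ratio within a library does not depend on how libraries are scaled. The Nefm/Nefl ratio of TPM was 0.463 ± 0.0122 (SD, n = 4) in WT males at P21 and 0.472 ± 0.0301 (SD, n = 4) in R237H males. In P21 females it was 0.4999 ± 0.0767 (SD, n = 3) in WT and 0.469 ± 0.0394 (SD, n = 5) in R237H rats. At P56 WT males had a ratio of 0.451 ± 0.0716 (SD, n = 4) and R237H males 0.488 ± 0.0505 (SD, n = 4), and WT females had 0.464 ± 0.0715 (SD, n = 4) and R237H females 0.479 ± 0.0633 (SD, n = 4). The genotypes overlapped in all 4 comparisons.

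The Nefh/Nefl ratio of males at P21 was 0.144 ± 0.00872 (SD, n = 4) for WT against 0.139 ± 0.00872 (SD, n = 4) for R237H, and 0.172 ± 0.0200 (SD, n = 4) and 0.166 ± 0.0235 (SD, n = 4) at P56. In females it was 0.136 ± 0.0147 (SD, n = 3) in WT and 0.124 ± 0.0102 (SD, n = 5) in R237H rats at P21, and 0.146 ± 0.0142 (SD, n = 4) and 0.164 ± 0.0260 (SD, n = 4) at P56. The Nefh/Nefm ratio had its widest spread in WT males at P56, from 0.271 in s69-A to 0.530 in s70-A, with the other groups between 0.227 and 0.402.

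Genotype was permuted within sex in an exact permutation test of the mean log2 ratio at each age, two-sided, with 3920 arrangements at P21 and 4900 at P56. None of the 6 differences passed 0.05 after adjustment over the 6 tests. The log2 difference was -0.03 for Nefm/Nefl, -0.10 for Nefh/Nefl and -0.07 for Nefh/Nefm at P21, and 0.08, 0.05 and -0.03 at P56, with adjusted p values from 0.747 to 0.818 in the exact permutation test and a lowest raw p of 0.124.

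**Figure D3:**
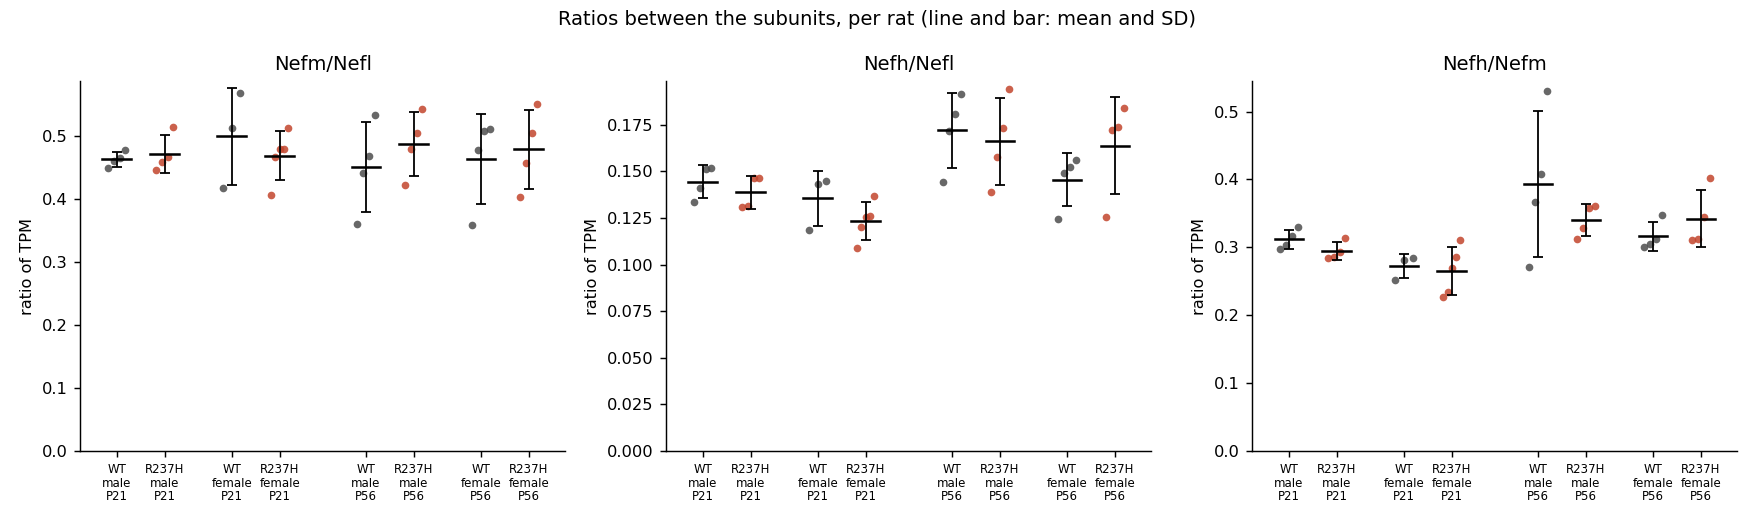
Ratios of TPM between the subunits (vertical axes, starting at 0) in each of the 32 rats, by genotype, sex and age, with the mean and SD of each group in black. R237H and WT rats overlap in every panel and pair, and the highest Nefh/Nefm ratio, 0.530, is in a WT male at P56.

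The subunits were set against genes shared by all neurons. Of 12 pan-neuronal genes listed, only Syp (a synaptic vesicle protein), Thy1 (a neuronal surface protein) and Rbfox3 (a nuclear RNA-binding protein, NeuN) had a symbol, and since symbols come from tables ordered by evidence of change, these 3 were not chosen free of the genotype result. They fell in males at P56 (3 of 3 passed), with log2 fold changes of -0.93 for Syp, -0.95 for Thy1 and -1.05 for Rbfox3, and 2 of 3 passed in females at P56, with -0.66 for Syp, -0.71 for Thy1 and -0.71 for Rbfox3 (FDR = 0.0641, not passed). At P21 0 of 3 passed in edgeR in either sex, with Syp at an unadjusted p under 0.05 in males (-0.18, FDR = 0.0894) and none in females. Of all genes tested, 4.82% in males and 0.753% in females were called lower at P21, and 11.1% in each sex at P56.

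Relative to the mean of these 3 genes, the subunit differences at P56 were near 0, at -0.10 for Nefl, -0.01 for Nefm and -0.05 for Nefh on the log2 TPM scale (adjusted p = 0.276, 0.917 and 0.745, exact permutation test within sex). As these 3 genes were matched through tables that favour changed genes, this cannot tell whether the subunits fell like neuronal genes in general. At P21 the differences were -0.19 for Nefl, -0.22 for Nefm and -0.28 for Nefh (adjusted p = 0.0666, 0.131 and 0.0612, exact permutation test within sex), and none passed 0.05. Without 1 R237H female, R1797D, all 3 passed at P21, at -0.23, -0.28 and -0.32 (adjusted p = 0.00735, 0.0139 and 0.0110, exact permutation test), and without R1789A Nefh passed at -0.31 (adjusted p = 0.0416, exact permutation test).

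Of the other intermediate filament genes of neurons, Nes, the filament protein of neural progenitors that reactive astrocytes also make, was the single one of 4 with a symbol, and Ina and Prph were not analysed here. Nes rose in all comparisons, from 6.80 ± 0.287 (SD, n = 4) to 20.0 ± 3.74 (SD, n = 4) TPM in males at P21 (log2 fold change 1.57, FDR = 1.71e-06) and from 5.13 ± 1.34 (SD, n = 4) to 109 ± 38.5 (SD, n = 4) TPM in males at P56 (4.00, FDR = 5.21e-06). In females the log2 fold changes were 1.65 and 4.00. Of the glial and general intermediate filament genes, Gfap and Vim, 2 of 6, had a symbol, and both rose in all 4 comparisons. Vim, the vimentin gene of astrocytes and other non-neuronal cells, had log2 fold changes of 3.79 and 3.95 in males and females at P21 and of 5.06 and 4.71 at P56. The symbols favour genes that changed, so these genes do not stand for their lists.

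Genes that handle neurofilaments were represented by 4 of 21 listed, so the counts say little of the list. Plec, the cytolinker plectin, rose in males at P21 (log2 fold change 0.65, FDR = 0.00357). Its values did not pass in females at P21 (0.44, FDR = 0.336) or in males (0.69, FDR = 0.0149) and females (0.70, FDR = 0.0106) at P56. Cdk5r1, the p35 activator of the kinase Cdk5 that phosphorylates the tails of Nefm and Nefh, fell at P56 in males (-0.71, FDR = 2.77e-04) and females (-0.79, FDR = 3.66e-04), with values of -0.16 and -0.30 at P21. Trim2, a ubiquitin ligase that binds Nefl, fell in males at P21 (-0.31, FDR = 0.00203) and in females at P56 (-0.36, FDR = 0.00963). Arhgef28, a protein that binds the Nefl mRNA, fell in males at P21 (-0.31, FDR = 0.00239) and did not pass elsewhere. The direction of Arhgef28 at P56 turned with the scale, since its mean TPM was higher in R237H rats of both sexes, as was that of Trim2 in males. The list had 1 gene up and 2 down in males at P21, 0 called in females at P21, 1 down in males at P56 and 2 down in females at P56. Beside these, 4.82%, 0.753%, 11.1% and 11.1% of all genes tested were called lower, in the same order. In females at P21, Cdk5r1, Trim2 and Arhgef28 had an unadjusted p under 0.05 in edgeR.

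Axonal microtubule and growth genes gave 4 of 15 with a symbol. Tuba4a, an alpha-tubulin, had log2 fold changes close to those of the subunits, at -0.36 (FDR = 6.97e-04) in males and -0.41 (FDR = 0.0130) in females at P21 and -0.90 (FDR = 2.68e-04) and -0.71 (FDR = 1.58e-04) at P56. Stmn2, a microtubule regulator of growing axons, fell in males at P21 (-0.34) and in males (-0.48) and females (-0.38) at P56. On the TPM scale the Stmn2 difference at P56 was much smaller, with means of 468 ± 67.4 (SD, n = 4) for WT males, 441 ± 19.8 (SD, n = 4) for R237H males and, in the same order, of 469.8 ± 31.6 (SD, n = 4) and 446 ± 56.7 (SD, n = 4) in females. Stmn3 fell at P56 in males (-0.93) and females (-0.79), and Stmn4 in males at P21 (-0.29). In all, 3 of 4 were called lower in males at P21, 0 of 4 in females at P21 and 3 of 4 in each sex at P56. The share of all genes tested that was called lower was 4.82% in males and 0.753% in females at P21, and 11.1% in each sex at P56. The 4 genes had a symbol through tables that favour changed genes, so their counts do not stand for the list. In females at P21, all but Stmn3 had an unadjusted p under 0.05 in edgeR. The list median was -0.32, -0.29, -0.69 and -0.54 in the order given, beside medians of all genes of -0.01, -0.01, -0.01 and -0.03. Kcna1, a potassium channel beside the node and the 1 of 16 initial segment and node genes with a symbol, had log2 fold changes of -0.31, -0.30, -0.48 and -0.45 and passed in all but the females at P21. Its TPM means at P56 lay closer together, at 49.6 ± 9.11 (SD, n = 4) for WT and 46.2 ± 3.22 (SD, n = 4) for R237H males, and at 51.3 ± 5.70 (SD, n = 4) for WT and 46.1 ± 4.31 (SD, n = 4) for R237H females.

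The 3 of 6 matched markers of fast-spiking parvalbumin interneurons, which hold much neurofilament, differed among themselves. Kcng4, a potassium channel subunit, fell in all 4 comparisons, to -3.49 (FDR = 5.99e-06) in males and -3.54 (FDR = 3.03e-06) in females at P56 from -0.49 and -0.66 at P21. Kcnc1, the Kv3.1 channel, fell at P56 (-0.80 in males and -0.71 in females) and did not pass at P21 (-0.02 and -0.11). Syt2, a vesicle calcium sensor of these cells, was not called, with -0.10, -0.59, -0.06 and -0.34 for males and females at P21 and then at P56. In females at P21 Syt2 had an unadjusted p of 0.00169 in edgeR (FDR = 0.0180). The summed level of the 3 was 24.1 to 38.6 TPM in WT and 14.7 to 22.4 TPM in R237H rats at P56. Pyramidal cell markers gave 3 of 3 matched genes lower in males at P56 and 1 of 3 in females (Grik4, -0.65), and 0 in either sex at P21, where Neurod6 and Grik4 in males and Grik4 in females had an unadjusted p under 0.05 in edgeR. At P56 11.1% of all genes tested were called lower in each sex, and matched markers favour genes that changed. The dentate granule cell markers moved differently from each other at P56. Of these markers 2 of 10 had a symbol: Sema5b, a semaphorin, rose in males (1.33) and females (1.404), and Prox1, a transcription factor of these cells, did not pass (-0.42 and -0.51). The unadjusted p of Prox1 in edgeR was 0.0271 in males and 0.0252 in females.

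Of the 7 genes listed for the injury response, 2 had a symbol, through tables that favour changed genes, so they do not stand for their list. Atf3, a transcription factor induced in injured neurons and in other stressed cells, rose from 0.785 ± 0.145 (SD, n = 4) to 19.8 ± 3.92 (SD, n = 4) TPM in males at P21 and from 0.975 ± 0.881 (SD, n = 4) to 47.4 ± 4.79 (SD, n = 4) TPM in males at P56. In females the log2 fold change of Atf3 was 5.32 at P21 and 4.40 at P56. Ecel1, a peptidase raised after nerve injury, rose at P56, with log2 fold changes of 1.97 (FDR = 0.00341) in males and 2.18 (FDR = 0.00258) in females, where it was at low levels (0.298 ± 0.0780 TPM in WT males, SD, n = 4). At P21 its values were 0.12 and 0.13 and did not pass.

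**Figure D4:**
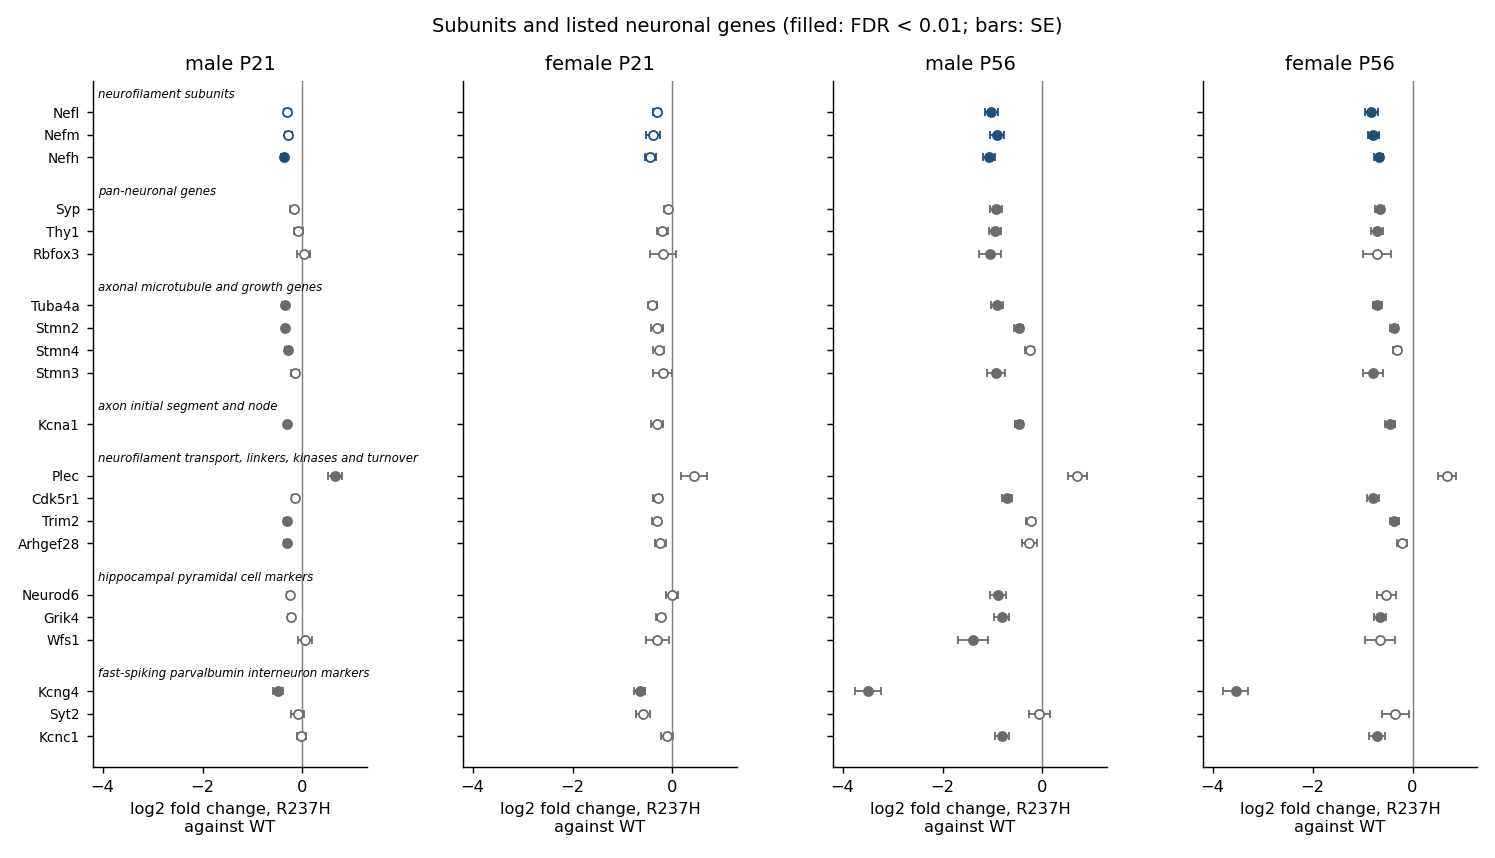
Log2 fold change of R237H against WT (horizontal axes) with SE bars for the subunits (blue) and the named genes of 6 neuronal lists (grey) in the 4 comparisons, filled where the FDR was under 0.01. The subunits lie from -0.28 to -0.44 at P21 and from -0.68 to -1.07 at P56, and Kcng4 lies lowest at P56, at -3.49 in males and -3.54 in females.

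Within groups, all 3 pairs of subunits were positively correlated from rat to rat, although Nefh with Nefm did not pass 0.05 by Pearson's r. Deviations of log2 CPM (counts scaled to library size) from the group mean were correlated over the 32 rats, with values permuted within groups in a permutation test. Pearson's r was 0.50 for Nefm with Nefl (p = 0.0134, adjusted over 3 pairs 0.0403, 0.45 without the 2 rats farthest from the median of Nefm), and Spearman's rho was 0.47 (p = 0.0190, adjusted 0.0284). For Nefh with Nefl r was 0.44 (p = 0.0308, adjusted 0.0463, 0.35 without the 2 farthest rats), and rho was 0.42 (p = 0.0319, adjusted 0.0319). For Nefh with Nefm r was 0.41 (p = 0.0836, adjusted 0.0836, 0.50 without the 2 farthest rats) and rho 0.52 (p = 0.0125, adjusted 0.0284). The measures of a pair share their library, and thus its depth and makeup.

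By the same deviations, the gene most like the mean of the 3 subunits among 11412 genes with a mean of at least 5 CPM was ENSRNOG00000017036 (mean r 0.65 over 32 rats), which has no symbol. It was followed by Gpr61, an orphan receptor (0.60), Habp4, an RNA-binding protein (0.60), Syp (0.60) and Prxl2a (0.59). The lowest were ENSRNOG00000010042, also without a symbol (-0.59), and the chemokine gene Cxcl10 (-0.56, from -0.72 with Nefl to -0.46 with Nefh). Genes at both ends were picked as extremes of this same ranking, so large values come with the choice. These correlations describe the libraries and were not tested.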

How the data were processed

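Hippocampal RNA (Ammon's horn, dentate gyrus and subiculum) of 32 rats was sequenced by the authors from stranded, polyA-selected libraries. Reads were demultiplexed with bcl2fastq 2.20.0.422 per the labels, trimmed with Skewer and aligned with STAR, and the authors deposited RSEM expected counts per gene (5.68% of values were not whole) and TPM values per gene. The genome build and annotation are not given in the sources used here, so no coordinates are given. Symbols came from the name columns of the study's supplementary tables, which cover 3289 of 23822 genes (13.8%) and favour genes that changed.

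After rounding, the expected counts went into edgeR 4.0.16 (filterByExpr, TMM, quasi-likelihood F-test, Benjamini-Hochberg FDR under 0.01) for R237H against WT within sex and age, age by genotype within sex, P56 against P21 in WT rats, and sex by genotype within age. Ratios of TPM were tested by exact permutation of genotype within sex (R 4.3.3, Python 3.11.15, scipy 1.17.1). Alternatives included DESeq2 1.42.0, limma 3.58.1 on log2(TPM + 0.1), other scaling and filters, and leaving out each rat. The scripts were tested on simulated data. Totals were 21580397 to 55544871 counts per library, and the 32 libraries were from separate rats.

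Named were the 3 subunits, the listed genes with a symbol (all for filament, filament-handling and parvalbumin interneuron genes, and for other lists at most the 4 with the smallest FDR), and the 5 genes most and 2 least like the subunits by mean correlation of deviations from group means. The members and lists were chosen with earlier results of these data known.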

Additional observations from a re-analysis of the deposited data

Results flagged for a closer look

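Tests of the difference between ages singled out 2 results, both in males: the age by genotype term was -0.74 on the log2 scale for Nefl and -0.72 for Nefh, so the difference between R237H and WT males was larger at P56 than at P21. Both were lower in size on the TPM scale and did not pass there. Relative to the median of all genes on that scale, which was 0.41, both were -0.71, without a test. No group of 4 or 5 rats had a rat far from the others by Dixon's criterion for any subunit level or ratio (0 of 42 groups examined).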

How the results depend on the processing

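Of 813 alternatives over 42 results, 763 kept their side of the threshold, 38 gained a call, 12 lost one and 0 reversed a called value. Differences that did not pass (age in WT rats, sex by genotype, ratios, and subunits relative to pan-neuronal genes at P56) included some that changed sign when 1 rat was left out. A change of processing could turn a sign too: the age by genotype term of Nefh in females went from -0.23 to 0.13 by limma on TPM. The causes were not tested beyond what each alternative changes. At P21 in males, Nefl passed with an FDR under 0.05 (-0.30), the likelihood-ratio test (-0.30), RLE size factors (-0.31), no filter (-0.31), limma on TPM (-0.31), DESeq2 (-0.31) and both sexes in one fit (-0.30), and Nefm with an FDR under 0.05 (-0.28), the likelihood-ratio test (-0.28), no filter (-0.28), DESeq2 (-0.28) and both sexes (-0.33), while Nefh lost its call with all 32 rats in one model (-0.37). At P21 in females, Nefl passed with an FDR under 0.05 (-0.31), DESeq2 (-0.32) and both sexes (-0.30), Nefm with both sexes (-0.33), and Nefh with an FDR under 0.05 (-0.44), the likelihood-ratio test (-0.44), DESeq2 (-0.46), all 32 rats (-0.45) and both sexes (-0.40). limma on TPM ended the calls at P56 of Nefm (-0.50) and Nefh (-0.67) in males and of Nefl (-0.54), Nefm (-0.49) and Nefh (-0.38) in females, and of the age by genotype term in males of Nefl (-0.30) and Nefh (-0.30). That of Nefm passed by the likelihood-ratio test (-0.65).

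Leaving out each rat in turn gave -0.37 to -0.23 for Nefl and -0.32 to -0.21 for Nefm in males at P21, -0.35 to -0.28 for Nefl in females at P21, -0.74 to -0.50 for Nefm and -0.80 to -0.60 for Nefh in the age by genotype term of males, and, relative to pan-neuronal genes at P21, -0.23 to -0.14 for Nefl, -0.28 to -0.15 for Nefm and -0.33 to -0.22 for Nefh.

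Title numbers shared by rats were not stated to mark litters, and 2 of 8 males at P56 and 3 of 5 females at P21 with a partner were closest to a rat of their number. In females at P56 the 2 pairs of one number had correlations of 0.105 and 0.543 (mean 0.324), against a mean of -0.05 over the 14 pairs of different numbers. With the number as a replicate block, Nefm (-0.56) and Nefh (-0.57) in females at P56 lost their calls in a fit that rests on those 2 pairs, the age by genotype term of Nefm in males passed (-0.63, an alternative chosen after seeing the data), and at P21 the subunits relative to pan-neuronal genes passed 0.05 (-0.19 for Nefl, -0.22 for Nefm and -0.28 for Nefh).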
